A study of Mus musculus with 3 samples.

Results

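The genes described here are 7 MHC class II genes of the mouse: H2-Ab1, H2-Aa and H2-Eb1, which encode chains of the presenting molecules, H2-DMa and H2-DMb1, which encode the chains of the peptide-loading factor H2-DM, Cd74, which encodes the invariant chain, and Ciita, which encodes the transactivator of the whole set. They were chosen by name, as 7 of 21887 protein-coding genes of the RefSeq table of GRCm38, and the peaks considered are those with any base inside a gene or within 20 kb of it. The chromatin came from alveolar type II (AT2) cells, the surfactant-making epithelial cells of the lung alveolus, of C57BL/6 mice aged 10 to 12 weeks, with no genetic change or treatment named in the labels. A service laboratory immunoprecipitated the chromatin after fixation in 1% formaldehyde for 11 min. Of the 3 samples, 1 was precipitated with an antibody to ETV5, 1 with an antibody to H3K4me3, and 1 is sheared input DNA, and each antibody has its own peak list. ETV5 is a transcription factor of the ETS family that binds DNA at a GGAA core, and H3K4me3 is histone H3 trimethylated at lysine 4, a mark of active promoters. The whole lists hold 31165 ETV5 and 15134 H3K4me3 peaks, of which 22 and 13 fall in the windows. Per 100 kb the windows held 7.01 ETV5 and 4.14 H3K4me3 peaks. Over the assembled chromosomes, which include stretches without genes, there were 1.15 and 0.557.

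MHC class II molecules carry peptides of ingested proteins to the cell surface and show them to CD4 T cells. The alpha and beta chains pair in the endoplasmic reticulum around the invariant chain, which blocks the groove and steers the complex to endosomes, where proteases cut it down and H2-DM exchanges the last fragment for a peptide. Dendritic cells, B cells and macrophages are the main class II cells, and AT2 cells are known as an epithelial cell type that also displays class II without infection. Transcription depends on CIITA, which does not bind DNA itself but docks on a complex of RFX, CREB and NF-Y proteins at the X and Y boxes just upstream of class II genes.

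Those boxes were looked for in the RefSeq promoter windows of GRCm38.p6, each running from 250 bases before to 50 after a start site. Windows were found for H2-Aa, H2-Eb1, H2-DMb1 and, with 2 start sites, H2-DMa, and none for H2-Ab1, Cd74 or Ciita. The letters searched on both strands were the Y box CTGATTGG and its core ATTGG, the X1 box core ACNGATG, and that core followed by ATTGG after 15 to 30 bases. The stretches directly upstream of the start sites of H2-Eb1 (chr17:34305757-34305866, plus strand) and H2-DMb1 (chr17:34153081-34153190, plus strand) are shown because they hold the ordered pair, with both cores in capitals. The stretch of H2-Aa (chr17:34287824-34287933, minus strand) is shown because it holds the Y box, in capitals, and no ACNGATG core. Other forms of the X box, and sites for CREB, were not searched. The missing core therefore does not show that H2-Aa lacks an X box. The only ACNGATG core in the H2-Aa window lay farther upstream on the other strand (34288049 to 34288055), outside the stretch shown and outside both peak lists.
H2-Eb1: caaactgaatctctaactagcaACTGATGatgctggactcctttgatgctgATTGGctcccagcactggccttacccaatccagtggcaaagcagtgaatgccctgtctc
H2-DMb1: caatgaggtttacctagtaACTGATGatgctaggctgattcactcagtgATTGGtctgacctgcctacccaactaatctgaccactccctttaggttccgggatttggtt
H2-Aa: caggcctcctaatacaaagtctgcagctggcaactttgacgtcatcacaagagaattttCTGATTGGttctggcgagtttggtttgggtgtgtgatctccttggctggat

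The ordered pair was rare among promoters: 45 of 32851 windows held it (0.137%), while ACNGATG alone was in 9.85%, CTGATTGG in 4.10% and ATTGG in 37.4%. In H2-Eb1 the pair began 88 bases before the start site with 22 bases between the cores, and in H2-DMb1 it began 91 bases before with 23 between. In H2-Aa the Y box began 51 bases before the start site. Both pairs and this Y box lay inside an H3K4me3 peak and outside every ETV5 peak. The nearest ETV5 summit was 388 bp from the pair of H2-DMb1, 3947 bp from that of H2-Eb1 and 9208 bp from the Y box of H2-Aa. H2-Eb2 and H2-DMb2, class II genes of the same locus that are not among the 7, held the pair too, also with 22 and 23 bases between the cores, and neither pair lay in a peak of either list. A match of letters is a description and not a measured binding site.

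Every one of the 7 genes carried H3K4me3 in its body, and ETV5 peaks beside them were mostly weak. H3K4me3 lay within 20 kb, within 5 kb and inside all 7 genes, where 66.0%, 59.8% and 56.5% of protein-coding genes had it. ETV5 lay within 20 kb of all 7 and within 5 kb and inside 6 of them, all but H2-Aa, where 68.6%, 63.2% and 59.7% of protein-coding genes had a peak. An ETV5 peak of fold enrichment of at least 10 was within 20 kb of 3 of the 7, H2-DMa, H2-DMb1 and Ciita, against 51.5% of protein-coding genes. The windows of neighbouring genes overlap, so these 3 counts of ETV5 share peaks. Fold enrichment is the authors' value for each peak and says how many times the fragments piled up at the summit exceed the number expected there from input, and the folds of the ETV5 and H3K4me3 lists are on separate scales. There is 1 library per antibody, so no value below has a replicate check, and intervals are exact 95% Poisson intervals of the pileup that cover counting error only. In chromatin of many cells, a mark in a share of the cells and a weaker mark in all of them cannot be told apart.

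The chains that present peptide came first. H2-Ab1, which encodes the beta chain of the I-A molecule (chromosome 17, 34263227 to 34269418), had an H3K4me3 peak of 2316 bp (34263063 to 34265378) with a fold of 39.0 and 281 fragments at the summit (interval 249 to 316). That summit lay 223 bp inside the gene from its lower-coordinate end. The peak was wider than most in its list, at the 90.1st percentile of width and the 72.0th of fold. Its single ETV5 peak (34264480 to 34265207) lay wholly within it, with a fold of 8.15 and a pileup of 19 (interval 11.4 to 29.7), at the 61.1st percentile of all ETV5 folds. The ETV5 summit was 1783 bp from the gene end and 1560 bp from the H3K4me3 summit, so the strongest points of both signals did not coincide at this gene.

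H2-Aa, the alpha chain that pairs with H2-Ab1 (chromosome 17, 34282744 to 34287823, minus strand), had H3K4me3 and no called ETV5 peak of its own. The H3K4me3 peak (34286088 to 34288005, 1918 bp) had a fold of 31.7 and a pileup of 204 (interval 177 to 234), with its summit 143 bp downstream of the start site. No called ETV5 peak lay within 5 kb. The ETV5 list rests on fewer tags than the H3K4me3 list (5715049 against 34907608), so weak ETV5 signal may have gone uncalled. Within 20 kb there were 2, the peak in H2-Ab1, 17734 bp away, and a peak between H2-Aa and H2-Eb1 (34296977 to 34297201, fold 5.34, pileup 11, interval 5.49 to 19.7), 9259 bp away. That peak between the genes stood alone, beside but not overlapping an H3K4me3 peak of 289 bp and a fold of 3.45, which is low for its list.

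H2-Eb1, the beta chain of the I-E molecule (chromosome 17, 34305867 to 34316674, plus strand), carried 2 H3K4me3 peaks. The peak over the start site (34305634 to 34306893) had a fold of 28.7 and a pileup of 182 (interval 157 to 210.4) and held no ETV5 peak. A narrower peak inside the gene (34309270 to 34310064, fold 19.97, pileup 128) held a weak ETV5 peak (34309609 to 34309865, fold 4.89, pileup 11, interval 5.49 to 19.7). Their summits were 35 bp apart, 3892 and 3857 bp downstream of the start site. Called peaks of ETV5 and the mark therefore coincided inside this gene and not at its start. The promoter window of H2-Eb1 held no GGAA on either strand, while 96.0% of all windows held at least 1, and those of H2-Aa and H2-DMb1 held 3 and 5. The alpha chain gene H2-Ea, which is defective in C57BL/6 and listed as a transcribed pseudogene, had no ETV5 peak within 20 kb and no H3K4me3 peak within 5 kb.

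**Figure D1:**
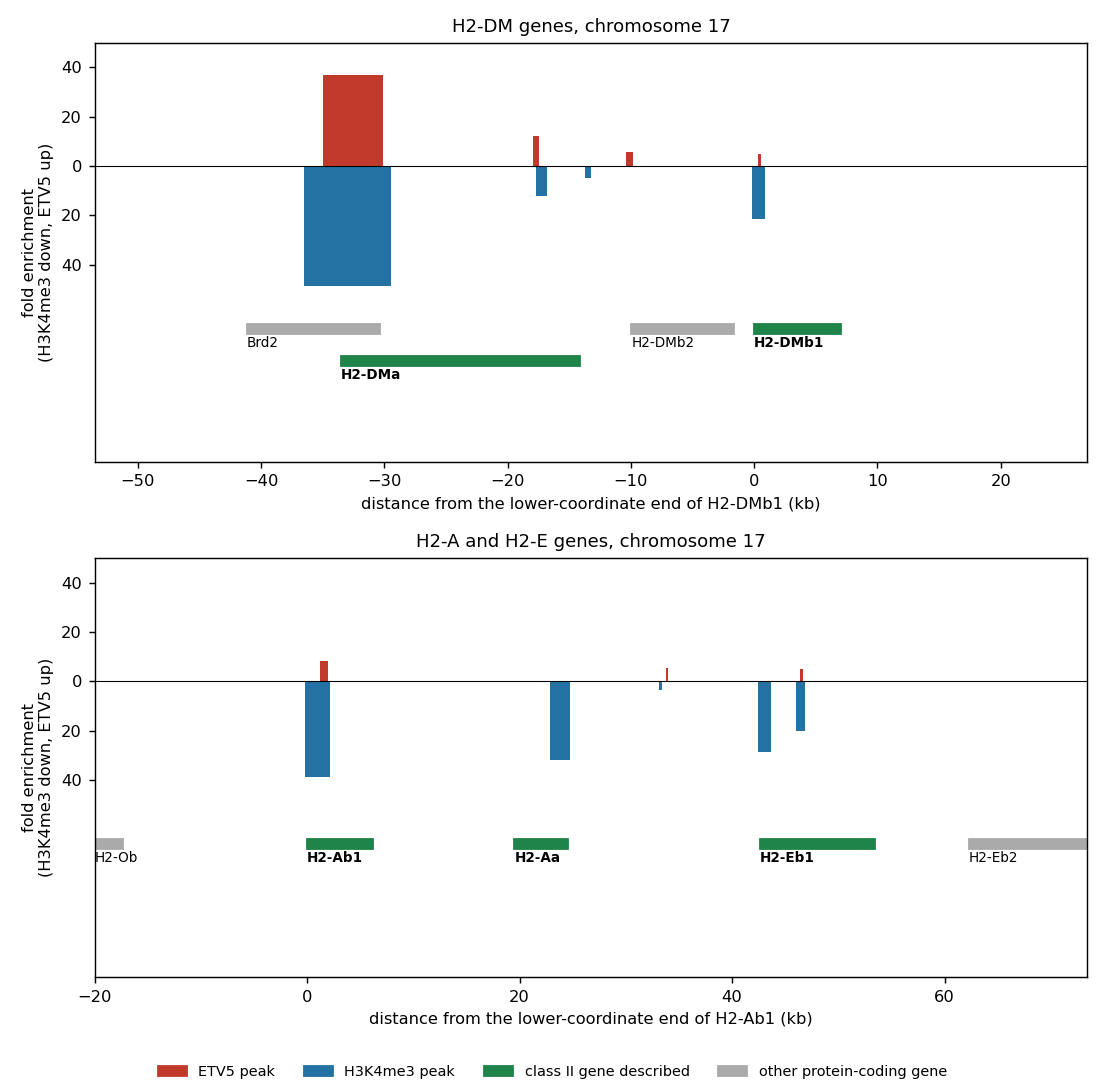
Peaks at the class II genes of chromosome 17, with the fold enrichment of ETV5 peaks (red, upward) and H3K4me3 peaks (blue, downward) against the distance in kb from the lower-coordinate end of H2-DMb1 (upper panel) or H2-Ab1 (lower panel), and genes as boxes below. The only tall ETV5 bar, of fold 36.8, lies where Brd2 and H2-DMa overlap, while the start of H2-Aa has a blue bar and no red one.

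The peptide-loading genes differed from each other, and the strongest signal at H2-DMa lay where that gene overlaps its neighbour Brd2. H2-DMa (chromosome 17, 34119693 to 34139101) had the strongest ETV5 peak of the whole set (34118182 to 34123068), with a fold of 36.8 and a pileup of 97 (interval 78.7 to 118). It was 4887 bp wide and lay inside an H3K4me3 peak of 7050 bp (34116657 to 34123706, fold 48.8, pileup 310, interval 276 to 347), at the 99.9th percentile of width. The ETV5 summit was 13 bp from the upper-coordinate end of Brd2 (34112019 to 34122814, minus strand), which is the start side of that gene. Brd2 encodes a bromodomain protein that binds acetylated histones, and its RefSeq extent overlaps that of H2-DMa. All 3 promoter windows of Brd2 lay in both peaks, as did 1 of the 2 windows of H2-DMa, while the other (start site 34125518) lay in no peak of either list. The RefSeq extent of H2-DMa rests in part on predicted transcripts, and its lower-coordinate end lies before both start sites. The ETV5 summit (34122801) lay close to the first of these start sites, at 34122832. The nearest Brd2 start site with a window was at 34122607. Whether these peaks belong to Brd2 alone, to H2-DMa or to both cannot be told. By nearest gene end, a rule that uses the ends of the RefSeq extent and not start sites, the highest ETV5 fold of H2-DMa was 12.0.

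A second pair of peaks lay near the other end of the RefSeq extent of H2-DMa. No promoter window covers these peaks, and whether a start site of H2-DMa lies there was not analysed. The ETV5 peak there (34135225 to 34135749) had a fold of 12.0 and a pileup of 23 (interval 14.6 to 34.5), and its summit was 3767 bp inside the gene from the upper-coordinate end. The H3K4me3 peak (34135537 to 34136386) had a fold of 12.1 and a pileup of 96, and overlapped 213 bp of the ETV5 peak, with summits 481 bp apart. This was the highest fold among the ETV5 peaks whose nearest gene end belongs to any of the 7 genes. A further H3K4me3 peak, of fold 4.86, lay 618 bp beyond the gene, and an ETV5 peak of fold 5.70 and pileup 10 lay outside the mark, 232 bp from H2-DMb2.

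Inside H2-DMa, outside the overlap with Brd2, the H3K4me3 fold was 12.1. With the peak at Brd2 taken for H2-DMa instead, H2-DMb1 (chromosome 17, 34153191 to 34160229, plus strand) had the lowest fold of the strongest H3K4me3 peaks of the 7 genes. The H3K4me3 peak (34153053 to 34154076, 1024 bp) had a fold of 21.3 and a pileup of 135 (interval 113 to 159.8), and the mark peaked 147 bp downstream of the start site. The ETV5 peak (34153496 to 34153708) lay wholly within it, with a fold of 4.97, a pileup of 9 (interval 4.12 to 17.1) and its summit 331 bp downstream. Both summits lay inside the gene, the ETV5 summit 184 bp farther in. H2-DMb2, the neighbouring second beta chain gene, had no H3K4me3 within 1 kb, and these paralogs are alike in sequence, so their values are uncertain where reads map to both.

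Among the promoter windows searched, a PEA3-type ETS motif, CCGGAA, and an ETV5 summit came closest in the strong ETV5 peak at Brd2 and H2-DMa. H2-Ab1, Cd74 and Ciita had no window, and sequence at summits outside the windows was not searched. Among all promoter windows 14.9% held CCGGAA on either strand. The 30 bases around the match (chr17:34122793-34122822, plus strand) are shown with the motif, read on the other strand, in capitals.
H2-DMa and Brd2: gggaataggttcTTCCGGctccggtctgag
The match (34122805 to 34122810) was 4 bp from the ETV5 summit. H2-DMb1 also had a match (34153176 to 34153181), 15 bases upstream of its start site in the stretch printed above, and that match lay 341 bp from the ETV5 summit and outside the ETV5 peak. The windows of H2-Aa and H2-Eb1 and the second window of H2-DMa had none.

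Cd74 had the most ETV5 peaks of the 7 genes, with folds from 4.38 to 7.95, and 1 H3K4me3 peak, at the 80.5th percentile of fold. The gene (chromosome 18, 60803849 to 60812652) encodes the invariant chain. Its H3K4me3 peak (60803722 to 60806922) was 3201 bp wide, at the 96.8th percentile of width, and had a fold of 43.7 and a pileup of 281 (interval 249 to 316). It covered 34.9% of the gene, about the share in H2-Ab1 (34.8%) and H2-Aa (34.2%) and above that in H2-DMa (25.1%), H2-Eb1 (16.9%), H2-DMb1 (12.6%) and Ciita (3.11%). The share in H2-DMa counts the region that overlaps Brd2.

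Of the 10 ETV5 peaks within 20 kb of Cd74, 4 had their nearest protein-coding gene end in Cd74. The strongest of these 4 (60803635 to 60804131) had its summit 55 bp outside the lower-coordinate end, with a fold of 7.33 and a pileup of 17 (interval 9.90 to 27.2), and 410 of its 497 bp lay in the H3K4me3 peak. A second, 561 bp inside the gene, had a fold of 5.67 and a pileup of 9 (interval 4.12 to 17.1) and lay wholly in the mark. The summit of the mark was farther inside the gene than both, by 281 bp from the second. The other 2 of the 4 lay inside the gene beyond the mark, with folds of 4.90 and 5.03 and pileups of 10 and 9, the latter 489 bp from the upper-coordinate end. The microRNA gene Mir5107, annotated inside Cd74, was nearer to both of these summits, at 4105 and 0 bp.

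The other 6 peaks in the Cd74 window lay outside H3K4me3. Of these, 5 were in Tcof1, a gene for a nucleolar protein of ribosomal RNA synthesis, with folds from 4.48 to 7.95 and pileups from 9 to 14. The remaining peak had a fold of 4.38, with its nearest protein-coding gene end in Rps14, 8619 bp away, and the gene Gm8731 nearer, at 4489 bp. The highest fold of this window, 7.95, was therefore in Tcof1, 18303 bp from Cd74, with a pileup of 14 (interval 7.65 to 23.5) that overlapped in its interval with the 17 at the Cd74 end. Just beyond the window, 20659 bp from Cd74, lay another ETV5 peak of fold 5.88.

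Ciita had its only H3K4me3 peak far inside the gene. The gene spans 51051 bp (chromosome 16, 10480014 to 10531064), and it is known to be transcribed from several alternative promoters that are used in different cell types. The H3K4me3 peak (10489491 to 10491077, 1587 bp) had a fold of 22.9 and a pileup of 145 (interval 122 to 171). The summit lay 9898 bp inside the gene from its lower-coordinate end. No H3K4me3 peak lay at that end. Which promoter the peak belongs to was not analysed here. An ETV5 peak (10489688 to 10490044) lay wholly within the mark, with summits 57 bp apart, a fold of 4.91 and a pileup of 8 (interval 3.45 to 15.8).

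The ETV5 peaks of highest fold in the Ciita window, 19.6 and 10.2, were nearest to gene ends of its neighbours. Which gene they act on was not tested. A peak of fold 7.02 (10473782 to 10474031, pileup 12, interval 6.20 to 21.0) lay 6108 bp outside the lower-coordinate end, away from H3K4me3 and 803 bp from the long noncoding RNA gene Gm41420. The other 3 lay in H3K4me3 peaks beyond the upper-coordinate end, 2 at Dexi with folds of 5.70 and 10.2 and 1 at Clec16a with a fold of 19.6 and a pileup of 39 (interval 27.7 to 53.3). Those H3K4me3 peaks had folds of 35.0 and 39.0, above the 22.9 inside Ciita. The 3 ETV5 summits at these neighbours lay 11489, 11887 and 14349 bp beyond the end of Ciita.

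**Figure D2:**
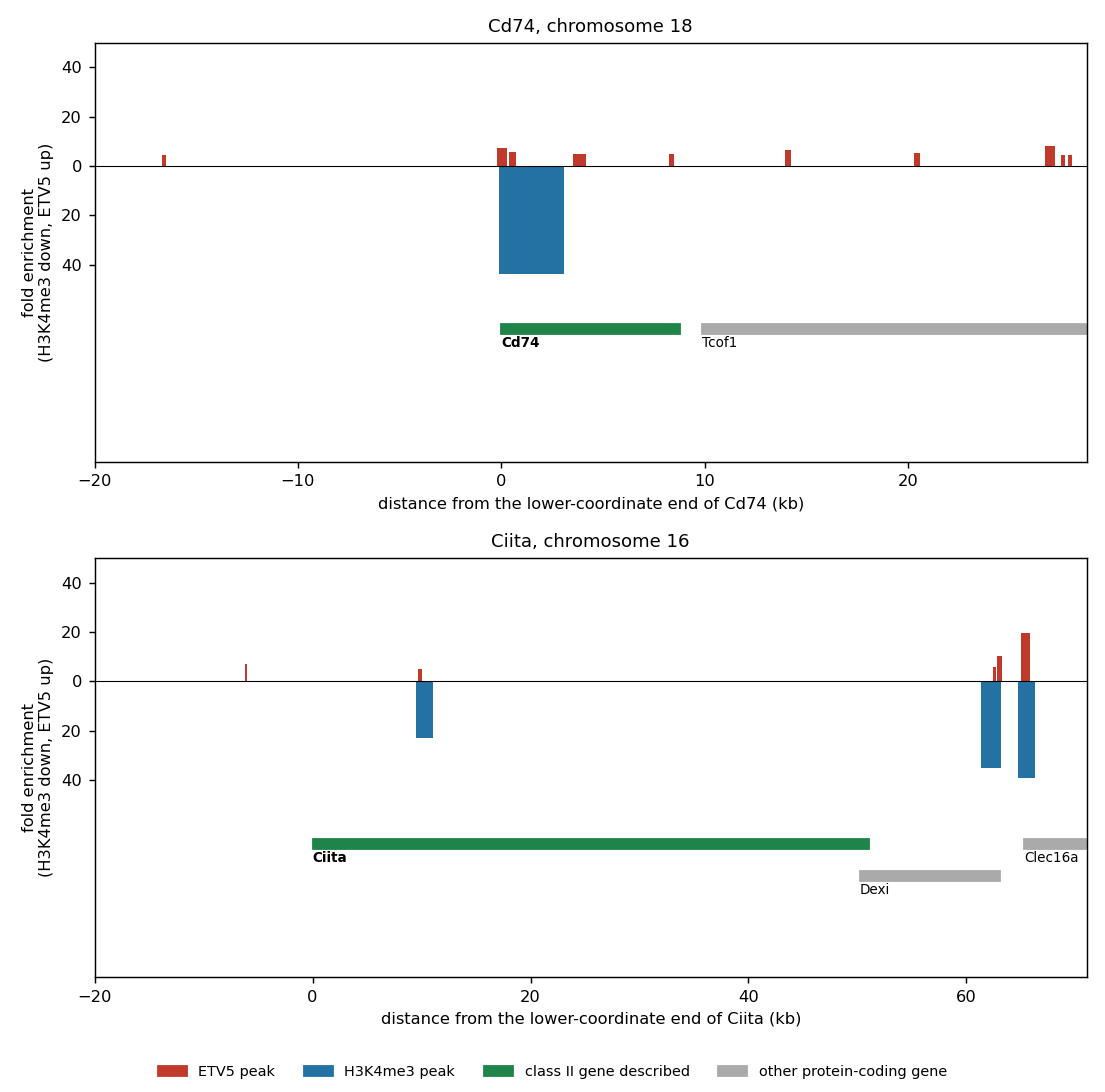
Peaks around Cd74 (upper panel) and Ciita (lower panel), with the fold enrichment of ETV5 peaks (red, upward) and H3K4me3 peaks (blue, downward) against the distance in kb from the lower-coordinate end of the gene, and genes as boxes below. Cd74 has 10 red bars of fold 4.38 to 7.95 and a single blue bar at its start, and the tallest red bar near Ciita, of fold 19.6, is at Clec16a.

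Counted once each, the 22 ETV5 peaks had a lower median fold than their whole list. The 13 H3K4me3 peaks had a higher median fold and median width than theirs. The ETV5 peaks had a median fold of 5.69 (4.38 to 36.8) and a median pileup of 11.0, against medians of 6.60 and 13 over all peaks on assembled chromosomes. The H3K4me3 peaks had a median fold of 28.7 (3.45 to 48.8) and a median width of 1525 bp, against 26.6 and 1220.0 bp. These medians are descriptions of lists of unequal size and were given no test. Of the 22 ETV5 peaks, 11 overlapped an H3K4me3 peak by at least 1 bp, near the 48.9% of all ETV5 peaks. Those 11 had a median fold of 7.33, against 11.1 for all ETV5 peaks inside H3K4me3, and the 11 outside had 5.34, against 5.30. The medians of the windows and of the whole list were thus farther apart inside the mark than outside it.

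Only 11 of the 22 ETV5 peaks had their nearest protein-coding gene end in 1 of the 7 genes: 4 in Cd74, 2 each in Ciita and H2-Eb1 and 1 each in H2-Ab1, H2-DMa and H2-DMb1. The others were nearest to Tcof1 (5), Dexi (2), Brd2, Clec16a, H2-DMb2 and Rps14. Among the 11, folds ran from 4.89 to 12.0 and pileups from 8 to 23. For H3K4me3, 11 of 13 peaks were nearest to 1 of the 7 genes, and the other 2 were those at Dexi and Clec16a.

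**Figure D3:**
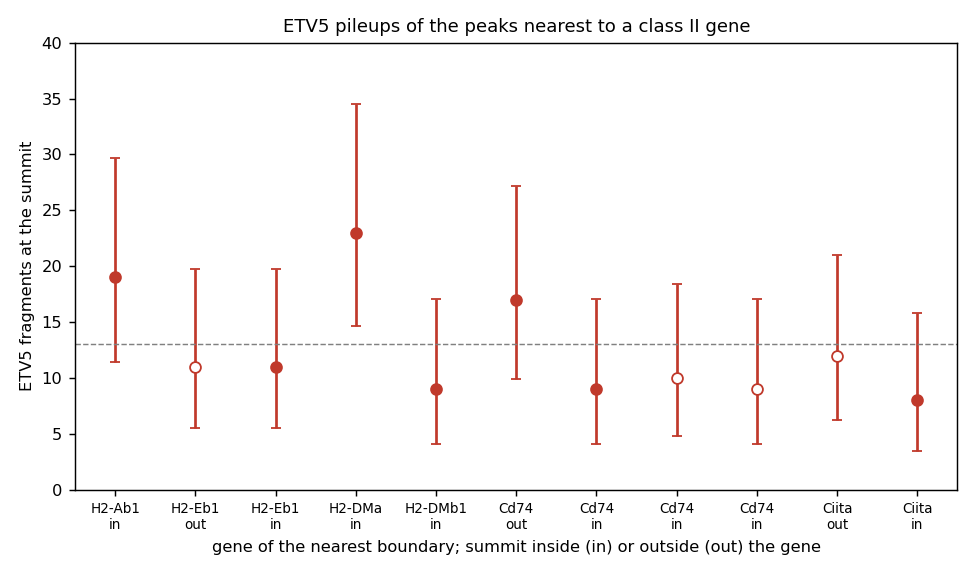
Pileup, in fragments at the summit, of the 11 ETV5 peaks whose nearest protein-coding gene end belongs to a class II gene, with exact 95% Poisson intervals, filled where the peak overlaps H3K4me3. Pileups run from 8 to 23 and nearly all intervals include the median of all ETV5 peaks, 13 (dashed line), the exception being H2-DMa, whose interval starts at 14.6.

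ETV5 was set against the mark at each gene's own H3K4me3 peak, the peak of highest fold within 1 kb of the gene. Their folds ran from 21.3 at H2-DMb1 to 48.8 at H2-DMa, and 5 of the 7 held an ETV5 peak, all but those of H2-Aa and H2-Eb1. Of all 7087 H3K4me3 peaks with a fold in that range, 97.2% held one. In those with ETV5, the strongest ETV5 peak had a median fold of 14.7 (quartiles 9.76 and 23.4). The class II values were 4.91 at Ciita, 4.97 at H2-DMb1, 7.33 at Cd74, 8.15 at H2-Ab1 and 36.8 at H2-DMa. All but H2-DMa, whose peak may belong to Brd2 alone, to H2-DMa or to both, were below the lower quartile. Of the 6889 H3K4me3 peaks in the range that hold ETV5, 2.06%, 2.24%, 11.8% and 16.1% had a weaker one, in the order above. Without H2-DMa, 4 of 6 held ETV5, against 96.7% of the 5884 peaks in the narrower range. With 1 library and 7 genes chosen by name, no test of this difference was made.

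**Figure D4:**
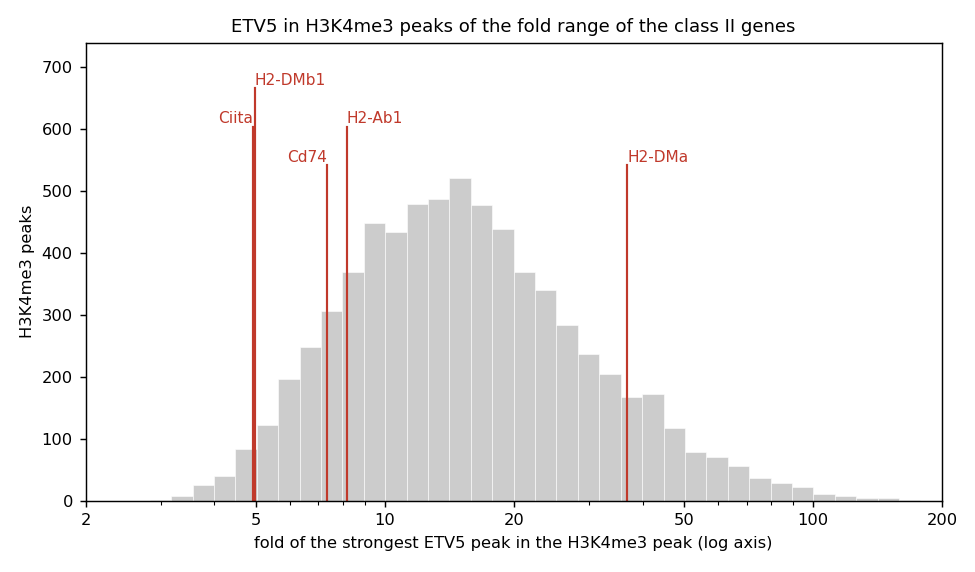
Fold of the strongest ETV5 peak (log axis) in each of the 6889 H3K4me3 peaks that hold ETV5 and whose own fold is from 21.3 to 48.8, as a histogram, with red lines at the class II genes. Ciita, H2-DMb1, Cd74 and H2-Ab1 lie at 4.91 to 8.15, below the lower quartile of 9.76, and H2-DMa at 36.8, while H2-Aa and H2-Eb1 have no ETV5 peak and no line.

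The AT2 identity of the chromatin was checked on markers. All 8 AT2 markers (Sftpc, Sftpb, Sftpa1, Sftpd, Slc34a2, Lamp3, Abca3 and Nkx2-1) had H3K4me3 within 1 kb, with folds from 21.8 to 60.9, which spans most of the class II range. At Abca3 the strongest such peak was nearest to Abca17, and at the others it was nearest to the marker itself. Of 32 markers of B cells, dendritic cells, macrophages and all leukocytes, 8 had H3K4me3 within 1 kb, against 57.3% of protein-coding genes. By list these were 2 of 8 for B cells, 3 of 8 for dendritic cells, 2 of 8 for macrophages and 1 of 8 for all leukocytes. In 4 of these 8 the strongest such peak was nearest to the marker itself: Mertk (fold 21.5), Batf3 (12.7), Cd79b (8.16) and Spi1 (3.99). In the other 4 it was nearest to a neighbour. Ptprc, Laptm5 and Cd53 of all leukocytes, Ms4a1 of B cells, Itgax, Flt3 and Clec9a of dendritic cells, and Adgre1, Csf1r, Marco and Siglecf of macrophages were among the 20 markers with no H3K4me3 peak within 5 kb, and the other 12 had one. The part of other cells in the class II peaks was not tested.

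The other genes of the class II pathway were described from 6 lists. A summit of ETV5 lay inside or within 5 kb of 34 of 41 genes, where 63.1% of protein-coding genes had one, and H3K4me3 lay within 1 kb of 30 of 41, where 57.3% of protein-coding genes had it. The strongest ETV5 peaks of the 34 had a median fold of 14.7, against 14.3 (quartiles 8.55 and 24.0) over the 13809 protein-coding genes with one, and the median of the 6 class II genes with one was 6.15. The median of the pathway genes was close to that of all genes, and 5 of the 6 class II values, all but H2-DMa, lay below the lower quartile.

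The first list holds the other class II genes of the locus, H2-DMb2, H2-Oa, H2-Ob, H2-Eb2 and H2-Ea, and the neighbouring Btnl2, a butyrophilin-like gene that is not a class II gene. None of these 6 had H3K4me3 within 1 kb, and within 5 kb H2-DMb2 alone did, with 2 peaks, the stronger being the peak of fold 21.3 at H2-DMb1. ETV5 lay within 5 kb of 2, H2-DMb2 (fold 5.70, pileup 10) and H2-Oa (fold 4.77, pileup 8), and of none of H2-Ob, H2-Eb2, H2-Ea and Btnl2. H2-Oa and H2-Ob encode H2-O, an inhibitor of H2-DM that is typical of B cells.

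All genes listed as acting on class II promoters had ETV5 within 5 kb and H3K4me3 within 1 kb. Of all protein-coding genes, 63.1% and 57.3% had these. At Rfxank the strongest H3K4me3 peak was nearest to Borcs8 and Gm45929. Among the 7 promoter complex genes, all had ETV5 within 5 kb, the strongest at Nfya (fold 34.8, pileup 70, nearest gene end in Oard1) and Nfyc (fold 21.8, pileup 39), which encode NF-Y subunits that bind the Y box. The 3 RFX genes, whose products bind the X box, were the lowest of this list, with 8.82 at Rfxank (nearest gene end in Nr2c2ap), 8.46 at Rfx5 and 8.26 at Rfxap. They were named after their values were seen. All 9 genes from the interferon gamma receptor to Ciita had ETV5 and H3K4me3, the strongest ETV5 at Usf1, a factor that binds a Ciita promoter (fold 46.8, pileup 114), and at the receptor kinase gene Jak1 (fold 32.0, pileup 58).

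Among 8 genes of invariant chain and antigen proteolysis, 7 had both signals, led by Sppl2a, the protease that clears the last membrane fragment of the invariant chain (fold 29.8, pileup 66), and cathepsin B (Ctsb, fold 19.1, pileup 42). Ctss, cathepsin S, which trims the invariant chain in professional antigen-presenting cells, had neither. Of 5 genes of turnover and surface display, 4 had ETV5, led by the ubiquitin ligase gene Marchf8 (fold 26, pileup 52) and the tetraspanin gene Cd63 (fold 13.5, pileup 25). Marchf1, which encodes the ligase that removes class II from the surface of B and dendritic cells, had neither ETV5 within 5 kb nor H3K4me3. Of 6 costimulation genes, 5 had ETV5, led by Cd80 (fold 25.4, pileup 72, nearest gene end in Adprh) and Cd274, the gene of PD-L1 (fold 18, pileup 47), and Cd86 had neither signal. H3K4me3 lay within 1 kb of 3 of these 6, near the 57.3% of all protein-coding genes. For ETV5 within 5 kb, the share of all protein-coding genes beside the counts of these lists was 63.1%.

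**Figure D5:**
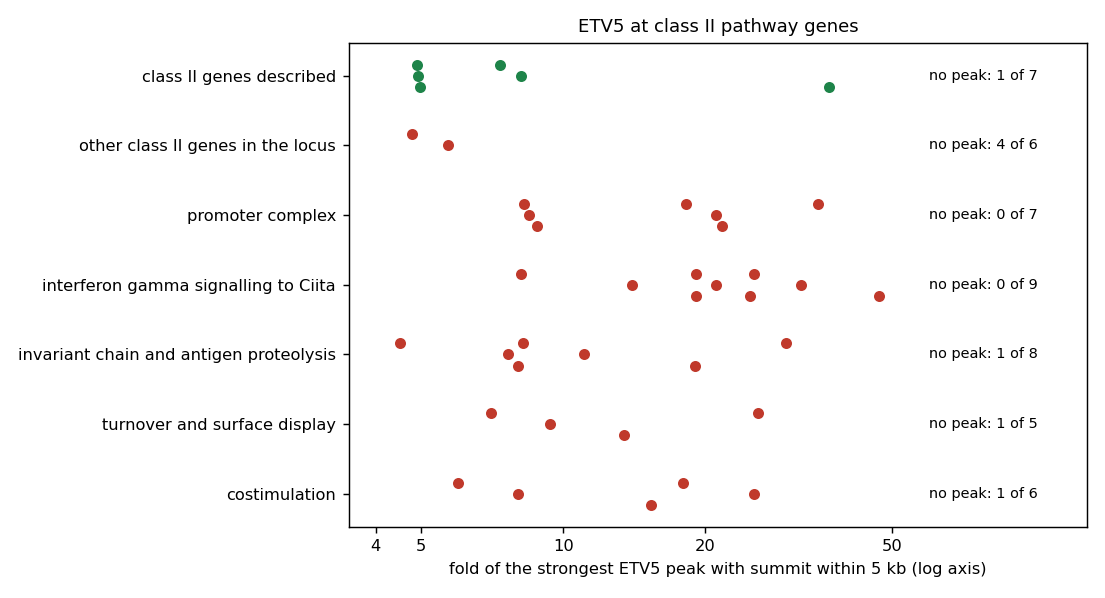
Fold of the strongest ETV5 peak (log axis) with its summit inside or within 5 kb of each gene, 1 point a gene, for the 7 class II genes (green) and the 6 pathway lists (red), with the number of genes without a peak at the right. Points of the interferon gamma list lie between 8.12 and 46.8, and those of the class II genes between 4.89 and 8.15 apart from H2-DMa at 36.8.

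H2-DMa, which of the 7 genes has the most H3K4me3 bases within 5 kb (8404), was compared with the 41 pathway genes by the distance on a log2 scale between their number of ETV5 peaks, highest ETV5 fold and H3K4me3 bases. The nearest were Irf2 (distance 1.44, 7 peaks, fold 24.9, 4558 bases), Nfyc (1.75, 2 peaks, fold 21.8, 2907 bases) and Nfya (1.77, 1 peak, fold 34.8, 3068 bases). H2-DMa itself had 3 ETV5 peaks there, and its values include the region shared with Brd2.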

How the data were processed

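Per the file headers, the authors called peaks separately for each antibody against input, keeping 1 tag per position and a q-value of at most 0.05; the submitters' processing notes name MACS2 2.1.0.20150420. The ETV5 list rests on 5715049 tags of 75 bp and the H3K4me3 list on 34907608 tags of 50 bp, and their headers name different inputs, of 27495486 and 44758677 tags. No aligner, and no rule for reads that map to several places, is given in the sources used. The deposited pileup signal counts fragments at the summit, the deposited fold ratio divides it by the input background, and the deposited −log10 p-value and −log10 q-value are the caller's.

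The labels name mm9, but 66.0% of H3K4me3 summits lie within 1 kb of an end of a protein-coding gene of the GRCm38.p6 table, so positions are given as GRCm38. Exons and introns were not told apart. Overlaps, nearest gene ends, Poisson intervals and motif matches were computed with scipy 1.17.1, pandas 2.3.3 and numpy 2.4.6 under Python 3.11.15, figures with matplotlib 3.10.9, and counting was tested on simulated data. Promoter sequences are RefSeq's for GRCm38.p6. Peaks on unplaced scaffolds (9 and 5) entered no overlap share.

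Genes, gene lists, motifs and alternatives were chosen with earlier results of these data known. All 7 genes are described. Per pathway list the 2 highest ETV5 folds and up to 3 genes without ETV5 are named, as are neighbours nearest to a peak and the 3 pathway genes most like the member with most H3K4me3. Alternatives covered smaller windows, stricter thresholds, other overlap rules and nearest-gene assignment. With 1 library per antibody no test across samples was possible.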

Additional observations from a re-analysis of the deposited data

How the results depend on the processing

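All 7 genes kept an H3K4me3 peak under each alternative run: windows of 5 kb, 1 kb and the gene body, −log10 q or fold of at least 10, and nearest-gene assignment. Counts of ETV5 peaks depended on the setting. The 22 peaks within 20 kb became 11 within 5 kb, 10 within 1 kb, 10 touching a gene body, 11 with the nearest gene end in a class II gene, 7 at −log10 q of at least 10 and 4 at fold of at least 10. Genes with ETV5 were 7, and 3 at fold of at least 10, while the other alternatives gave 6. ETV5 peaks overlapping H3K4me3 were 11, and 6 at ETV5 −log10 q of at least 10. The median of H3K4me3 bases per gene was 4262 within 20 kb, 2055 within 5 kb and 1822 in the body, by construction of the smaller windows. The highest ETV5 fold went from 36.8 to 12.0 at H2-DMa, from 12.0 to 4.97 at H2-DMb1 and from 19.6 to 7.02 at Ciita when only peaks nearest to an end of the gene counted. That rule used the ends of the RefSeq extent, not start sites. The X and Y pair at 2 genes, with a spacing of 10 to 40 bases, and the own peaks without H2-DMa were alternatives chosen after seeing the data. No paired analysis was possible because each antibody has 1 library. Pileups of 8 to 23 fragments limit the order of the ETV5 peaks, since most of their intervals overlap.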

Other observations

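The ordered X and Y cores that mark H2-Eb1 and H2-DMb1 also occurred at class I genes, which were looked at after the list of windows was seen. Of the 45 promoter windows with the pair, 9 belonged to H2 genes of chromosome 17, 4 of them class II (H2-DMb1, H2-DMb2, H2-Eb1 and H2-Eb2) and 5 class I (H2-D1, H2-Q4, H2-Q6, H2-Q7 and H2-M3). H3K4me3 covered part of all 5 class I windows, and an ETV5 peak covered part of 4, all but that of H2-M3. Of the 4 class II windows, 2 had H3K4me3 and none had ETV5. Over all 45 windows, 16 had H3K4me3 and 12 had ETV5. The share of all promoter windows with either signal was not counted, so these counts lack that background. The H2-Q genes and H2-D1 are closely similar in sequence, so their values are uncertain, and no test of these counts was made.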
